A study of Mus musculus with 56 samples.

Results

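The vesicle exocytosis machinery was examined through 38 genes that encode SNARE proteins, synaptotagmins, granule Rab proteins and their partners. They were chosen by name, and all 38 were found among the 47069 gene rows of a count table from single-cell (SC) RNA-seq of mouse pituitary cells. The cells came from a primary culture of pituitaries of untreated, randomly cycling female C57BL/6 mice aged 10 to 12 weeks, pooled from 5 pituitaries per culture sample, grown for 4 days and stored in the stabilizing solution RNA-Best. They were passed through a 10-μm filter, captured on a small-cell Fluidigm C1 chip, and each well gave 1 SMART-Seq v4 library with ERCC spike-in RNA. Of 56 wells, 46 held at least 100000 gene counts and were used. No animal or culture is named for any well, so the wells were 1 sample, no test between groups of wells was possible, and every value below is a description of these wells.

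An endocrine cell stores its hormone in dense-core granules and releases it when calcium enters. SNARE proteins on the granule (VAMPs) and on the plasma membrane (syntaxins, SNAP25 and SNAP23) zip together to fuse the membranes, synaptotagmins sense the calcium, and Rab3 and Rab27 proteins with their effectors bring granules to the membrane. NSF and its adaptors, the SNAP proteins, take used SNARE complexes apart. All pituitary hormone cells depend on this machinery, and most of its proteins exist as several isoforms from separate genes.

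The wells were grouped by the hormone gene with the highest share of counts. *Prl* (prolactin) led in 37 wells, *Pomc* (the precursor of ACTH) in 5 wells, named B2, D10, E8, F11 and H2 by plate position, and *Gh* (growth hormone) in 4 wells, B12, C9, F4 and H11. Gene counts per well ranged from 111195 to 12563266 with a median of 1192620. Each well contained *Prl* reads, with at least 1216 CPM (gene counts scaled to 1000000 per well), and the labels of the groups were uneven in quality. *Pou1f1*, the factor of the Prl, Gh and Tshb lineages, reached 10 CPM in 27 of 37 Prl-led wells and in 0 of 5 Pomc-led wells. In the Pomc-led wells *Pcsk2*, a prohormone convertase, reached it in 5 of 5 and *Tbx19*, the corticotrope factor, in 3 of 5. Neither was limited to this group. *Pcsk2* also reached 10 CPM in 20 of 37 Prl-led and 2 of 4 Gh-led wells, and *Tbx19* in 7 of 37 Prl-led wells. *Pou1f1* did so in 1 of 4 Gh-led wells. The Gh-led label rested on thin values: the *Gh* level was above that of every Prl-led well only in C9 (307675 CPM), while 19, 21 and 17 Prl-led wells had more *Gh* than B12, F4 and H11, and *Ghrhr* reached 10 CPM in 1 Gh-led well. It is therefore described by its rule and not as a cell type. In the Prl-led well E3, *Prl* took 13.2% of counts but the gonadotrope genes *Lhb* (59401 CPM), *Fshb* (2464 CPM) and *Gnrhr* (3060 CPM) were also high. *Gnrhr* reached 10 CPM in the Pomc-led well H2 (154 CPM) and the Gh-led well F4 (63.8 CPM) too. In H2 the listed gonadotrope marker *Cga* was at 41215 CPM, and in F4 *Lhb* was at 1643 CPM. The Prl-led well H4 carried endothelial genes at a summed 8855 CPM, with 4 of 5 markers above 100 CPM (*Plvap* at 4885 CPM). F6 had 4 of 5 above 100 CPM as well, at a summed 979 CPM. By the sum alone H7 was above F6, at 2041 CPM, but with only 1 marker at 100 CPM or more. H9 and A2 also had 1 such marker, at sums of 320 and 274 CPM.

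The share of spike-in counts set the wells apart as well. It was under 5% in 22 wells (0.144% to 2.87%) and 5.89% to 66.1% in the other 24, a limit placed in this gap after the values were seen. The wells with less spike-in were deeper, at a median of 4630412 against 449666 gene counts, and held all 5 Pomc-led wells, 3 of 4 Gh-led wells and 14 of 37 Prl-led wells. Spike-in share, depth and leading hormone therefore cannot be fully told apart, and results are given for all 46 wells and for these 22 wells side by side. Over the 38 genes, wells with 5% or more spike-in were also more alike: in plate columns 4 to 6 and 10 to 12 their median Spearman's rho was 0.803 over 21 pairs, against 0.427 over 45 pairs for the wells with less spike-in in the same columns. In columns 1 to 3 and 7 to 9 the medians were 0.612 and 0.490. Between the column sets the wells with 5% or more spike-in had a median rho of 0.413. The pair C10 and C11 had the highest rho, 0.986, beside a median of 0.466 over 1035 pairs. The next pairs were C11 with F12 (0.927), C2 with C7 (0.921) and C10 with F12 (0.915). Between C10 and C11, all 18 of the genes with at least 10 counts in either well were within 2-fold in raw counts (*Stx3* at 65 and 61, *Napa* at 72 and 79). Leaving out C11 moved the count of genes called against Prl-led wells to 11 for the Pomc-led and 7 for the Gh-led group, and left 12 genes widely detected.

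The promoters of 3 of the genes are printed here: *Rab3b* has the largest difference between Pomc-led and Prl-led wells, *Napa* is among the most widely detected genes, and *Syn1* shares a motif with *Napa*. RefSeq (GRCm38.p6) gave a promoter, 250 bases before to 50 after the annotated start, for 30 of the 38 genes. The *Rab3b* promoter lies at chr4:108878820-108879119 on the plus strand, that of *Napa* at chr7:16098330-16098629 on the plus strand and that of *Syn1* at chrX:20920869-20921168 on the minus strand. Capitals mark a cAMP response element (TGACGTCA), a TATA box (TATAAA) or a GC box (GGGCGG), found on either strand, and adjoining GC boxes can overlap:
Rab3b promoter: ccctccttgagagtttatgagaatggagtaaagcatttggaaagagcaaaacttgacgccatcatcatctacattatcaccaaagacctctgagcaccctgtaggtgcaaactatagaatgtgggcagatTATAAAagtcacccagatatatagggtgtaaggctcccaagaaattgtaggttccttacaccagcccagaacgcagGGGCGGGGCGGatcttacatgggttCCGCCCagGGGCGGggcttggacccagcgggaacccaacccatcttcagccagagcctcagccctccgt
Napa promoter: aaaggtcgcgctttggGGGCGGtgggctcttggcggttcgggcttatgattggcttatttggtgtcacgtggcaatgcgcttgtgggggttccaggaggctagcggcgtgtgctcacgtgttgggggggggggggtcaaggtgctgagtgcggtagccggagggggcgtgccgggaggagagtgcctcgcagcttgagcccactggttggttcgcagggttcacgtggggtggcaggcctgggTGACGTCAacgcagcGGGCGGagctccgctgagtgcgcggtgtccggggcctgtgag
Syn1 promoter: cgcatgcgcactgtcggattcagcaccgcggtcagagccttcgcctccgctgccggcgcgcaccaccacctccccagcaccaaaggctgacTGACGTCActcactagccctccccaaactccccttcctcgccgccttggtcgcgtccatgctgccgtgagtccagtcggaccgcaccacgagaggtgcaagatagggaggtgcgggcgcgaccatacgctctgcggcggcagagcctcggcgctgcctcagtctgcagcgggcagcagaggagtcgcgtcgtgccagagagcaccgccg
The cAMP response element, the sequence read by CREB, stood in the *Napa* and *Syn1* promoters and in no other of the 35 promoters of the genes, against 1.79% of all 32851 promoters. The TATA box stood in 2 of the 35 (*Rab3b* and *Stx3*, 13.6% of all promoters) and the GC box in 21 of the 35 (35.7% of all). The T-box motif TCACACC, the element of factors such as TBX19, stood in 1 of the 35, that of *Rab27a*, against 3.98% of all promoters. These matches are descriptions of letters and not of factor binding.

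Most wells carried transcripts for a core of fusion genes, while the genes of docking and priming were patchy. Of the 38 genes, 37 had at least 1 count in some well, and 12 reached 10 CPM in 50% or more of the wells (background: 9.79% of 28141 genes with any count). These were *Snap25*, *Vamp2*, *Vamp3*, *Vamp4*, *Vamp8*, *Syt1*, *Syt4*, *Syt11*, *Syp*, *Nsf*, *Napa* and *Ptprn*. In the 22 wells with under 5% spike-in, 18 genes did so (background: 14.9% of 24336 genes). The summed level of the 38 genes had a median of 2474 CPM, from 248 to 10456, and was 3720 CPM in the 22 wells with under 5% spike-in and 1383 CPM in the other 24. Across the 46 wells this sum had a Spearman's rho of 0.363 with depth, -0.337 with spike-in share and -0.361 with the *Prl* level, measures that share the library of each well. Values near 10 CPM were coarse in shallow wells, where 10 CPM was under 3 counts in the shallowest. Of the 1225 values above 0, 99 in 20 of the genes were not whole numbers (tolerance 1e-09), so that some reads were divided between features, and 19 of the genes overlap a gene on the opposite strand. The genes *Vamp8*, *Syt4*, *Napa*, *Rab3b* and *Snap25* made up 49.1% of the summed CPM over all wells.

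**Figure D1:**
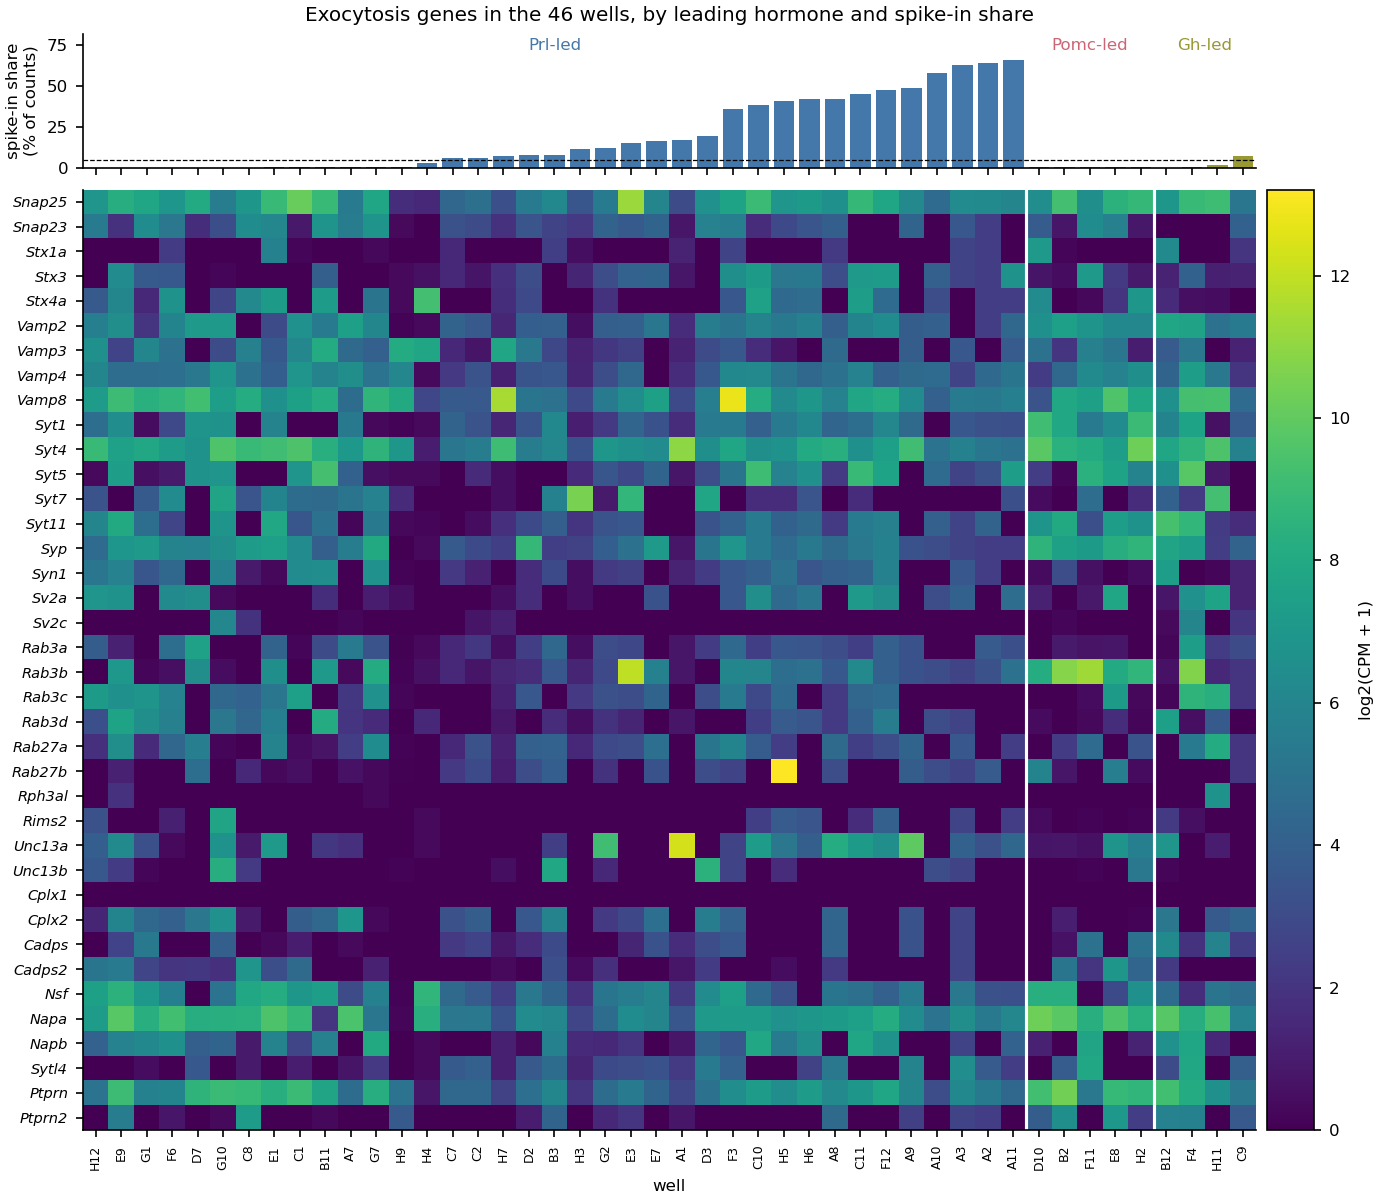
Levels of the 38 genes in the 46 wells as log2(CPM + 1) in colour, with wells on the x axis ordered by leading hormone and spike-in share, genes on the y axis, and the spike-in share of each well (percent of counts) as bars above with a dashed line at 5%. Rows of Snap25, Vamp8, Syt4, Napa and Ptprn are bright across most wells, Cplx1 is at 0 in all, and Rab27b is bright in a single well, H5.

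Among SNAREs of the plasma membrane, *Snap25* (chr2:136713453-136782428, plus strand), the SNAP25-type SNARE of neurons and endocrine cells, reached 10 CPM in 42 of 46 wells (91.3%, exact 95% interval 79.2% to 97.6%). Its level was 1.74 CPM in the lowest well, 109 CPM in the median well and 2413 CPM in the highest. The lowest was H4, the well with endothelial genes, and the highest was E3, the well with gonadotrope genes. Its broadly expressed relative *Snap23* reached 10 CPM in 22 wells. Per kb of exon, *Snap25* was the higher of the pair in 43 of 46 wells (93.5%, exact interval 82.1% to 98.6%), among them 19 of the 22 wells with under 5% spike-in. *Snap25* and its opposite-strand neighbour *Gm14053* overlap, and without a stated strand setting their reads cannot be told apart.

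The syntaxins, the SNAREs that pair with SNAP25, were the patchiest part of the core. At least 1 of *Stx1a*, *Stx3* and *Stx4a* reached 10 CPM in 24 of 46 wells. *Stx1a*, the main syntaxin of regulated secretion in neurons, did so in 3 wells, at 137 CPM in D10, 78.1 CPM in B12 and 54.4 CPM in E1. *Stx3* and *Stx4a* each did so in 16 wells. Per kb, *Stx4a* was the highest in 20 wells (43.5%, exact interval 28.9% to 58.9%), *Stx3* in 12 and *Stx1a* in 10, and 4 wells had no count of any. These leads were counted at any value above 0. In 22 wells none of the 3 reached 10 CPM, so many leads rested on values under the detection limit, which the interval does not cover. By CPM without division by length, *Stx3* led in 22 wells and *Stx4a* in 11, so the order depended on the lengths used.

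Among VAMPs, the SNAREs on the vesicle, the most abundant was not *Vamp2*, the classical VAMP of granules and synaptic vesicles, but *Vamp8* (chr6:72385223-72390703, minus strand), known from endosomes and from secretion in exocrine and blood cells. *Vamp8* reached 10 CPM in 42 wells and *Vamp2* in 36 (78.3%). The median levels were 61.2 CPM per kb for *Vamp8*, 9.86 for *Vamp2*, 5.37 for *Vamp4* (a VAMP of the trans-Golgi network) and 3.11 for *Vamp3* (a VAMP of recycling endosomes). *Vamp8* led in 41 of 46 wells per kb (89.1%, exact interval 76.4% to 96.4%), among them 18 of the 22 wells with under 5% spike-in, *Vamp2* in 4 and *Vamp3* in 1. *Vamp8* was at 7296 CPM in F3 and 2891 CPM in H7, both with over 5% spike-in and far above the 752 CPM of the highest well with less. *Vamp4* reached 10 CPM in 34 wells and *Vamp3* in 23. *Snap25* and *Vamp2* were both at 10 CPM in 36 wells (78.3%, exact interval 63.6% to 89.1%), with at least 1 of the syntaxins in 20 (43.5%).

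The synaptotagmins, the calcium sensors, were led by *Syt4*, an isoform of dense-core granules that binds calcium weakly. It reached 10 CPM in 44 of 46 wells, the largest number of the 38 genes, at 0.992 CPM in the lowest well, 169 CPM in the median well and 1960 CPM in the highest. *Syt4* had the highest level per kb in 31 wells (67.4%, exact interval 52.0% to 80.5%), *Syt5* in 11, *Syt7* in 3 and *Syt11* in 1. *Syt1*, the fast sensor of neurons, led in 0 wells, with a median of 2.16 CPM per kb against 43.3 for *Syt4*. *Syt1* reached 10 CPM in 27 wells, *Syt11* (which lacks calcium binding) in 24, *Syt5* in 21 and *Syt7* (a slow, high-affinity sensor) in 17. *Syt7* was at 1519 CPM in H3, 44.0% of its summed CPM.

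Of the small Rab3 GTPases on granules, *Rab3b* (chr4:108879063-108943324, plus strand) varied most. Its level was 0 CPM in 4 wells, 8.93 CPM in the median well, 2550 CPM in F11 and 3898 CPM in E3. *Rab3b* reached 10 CPM in 22 wells, *Rab3c* in 18, *Rab3d* in 13 and *Rab3a* in 12, and at least 1 of the 4 in 33 wells. Per kb, *Rab3b* led in 21 wells (45.7%, exact interval 30.9% to 61.0%), *Rab3a* in 13, *Rab3d* in 9 and *Rab3c* in 3. The order below *Rab3b* differed with spike-in share: *Rab3d* led in 8 and *Rab3a* in 2 of the 22 wells with under 5%, and *Rab3a* led in 11 and *Rab3d* in 1 of the other 24. A lead was counted at any value above 0, and 13 of the 46 wells had no Rab3 gene at 10 CPM. In the 24 wells *Rab3a* reached 10 CPM in only 6, so some of its leads there rested on values under the detection limit. In plate columns 1 to 3 and 7 to 9 alone, *Rab3a* led in 13 of 29 wells and *Rab3b* in 12. *Rab3b* overlaps the opposite-strand genes *Gm12736* and *8030443G20Rik*.

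The Rab27 proteins and the effectors that tether granules were sparse. *Rab27a* reached 10 CPM in 17 wells and *Rab27b* in 7. *Rab27b* was at 9454 CPM in H5, from 4351 counts, and at most 60.4 CPM in any other well, so that 1 well held 97.4% of its summed CPM. Of the effectors, *Sytl4* (granuphilin) reached 10 CPM in 15 wells, 11 of them among the 24 with 5% or more spike-in, *Rims2*, a scaffold of docking sites, in 4 with 206 CPM in G10 (74.8% of its summed CPM), and *Rph3al* (noc2) in 1, at 105 CPM in H11.

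The priming and clamping factors were present in a minority of wells. *Unc13a* (Munc13-1, which opens syntaxin) reached 10 CPM in 18 wells and was at 5289 CPM in A1, 63.9% of its summed CPM, while *Unc13b* reached it in 5. The granule-priming CAPS genes *Cadps* and *Cadps2* reached it in 8 and 7 wells, and all 7 wells of *Cadps2* had under 5% spike-in. *Cplx2*, a complexin that holds the SNARE complex before calcium arrives, reached 10 CPM in 18 wells. *Cplx1* had 0 counts in all 46 wells, so its share of wells at 10 CPM was 0% with an exact upper limit of 7.71%. These intervals cover counting error over wells only and take the wells as independent.

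The disassembly genes were widely present. *Napa* (alpha-SNAP, chr7:16098458-16117975, plus strand), the adaptor that recruits NSF, reached 10 CPM in 42 wells, with 0.188 CPM in the lowest well, 147 CPM in the median well and 1250 CPM in D10. Its relative *Napb* reached it in 21 wells, and *Napa* was the higher per kb in 44 of 46 wells. *Nsf*, the ATPase, reached 10 CPM in 32 wells with a median of 32.2 CPM. Both *Nsf* and *Napa* did so in 31 wells.

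Among genes of the vesicle membrane, *Ptprn* (IA-2, a dense-core granule protein, chr1:75247027-75264502, minus strand) reached 10 CPM in 41 wells and was above its relative *Ptprn2* per kb in 46 of 46 wells. *Ptprn2* reached 10 CPM in 11 wells. *Syp* (synaptophysin) did so in 33 wells, *Syn1* (synapsin, which ties vesicles to actin) in 17, *Sv2a* in 15 and its relative *Sv2c* in 2. The medians of *Syp* and *Ptprn* were 24.6 and 71.6 CPM per kb in the 22 wells with under 5% spike-in, against 7.44 and 15.9 in all 46 wells.

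**Figure D2:**
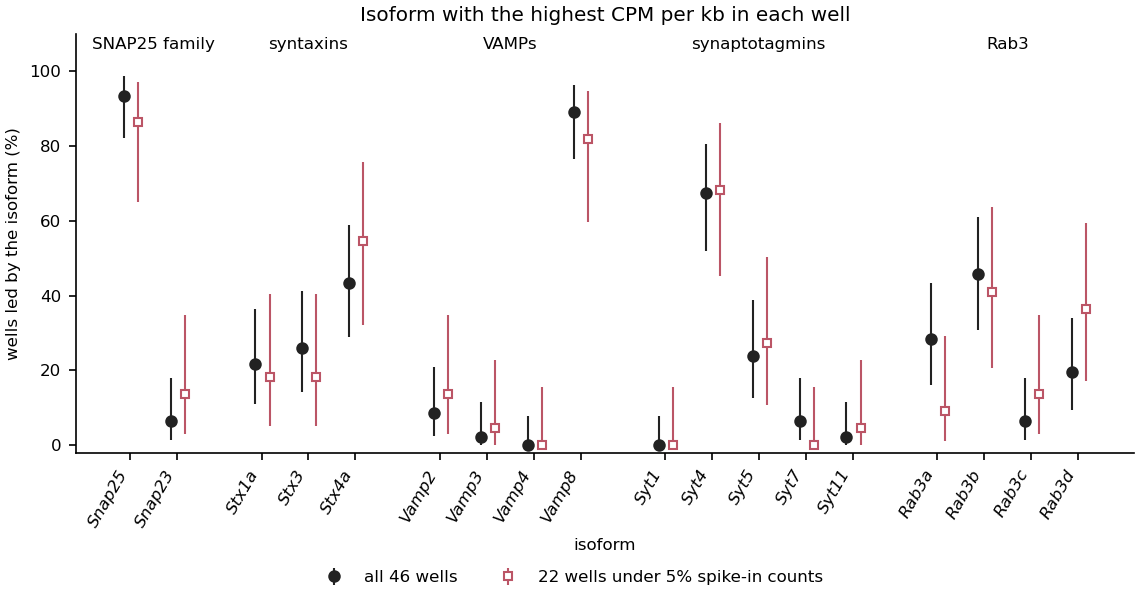
Percent of wells (y axis) in which each isoform (x axis) had the highest CPM per kb of its family, with exact 95% intervals as lines, for all 46 wells (filled) and the 22 wells with under 5% spike-in (open). Snap25, Vamp8 and Syt4 lead most wells in both sets, while Rab3a and Rab3d exchange rank between them.

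Well H4 held a set that it shared only in part with other wells. *Snap25* was at 1.74 CPM and *Syt4* at 0.992 CPM there, with all 45 other wells above for both, and *Vamp2*, *Ptprn* and *Syp* were at 0.248, 0.744 and 0.248 CPM. By contrast *Stx4a* at 602 CPM and *Nsf* at 408 CPM were the highest of all wells, *Vamp3* at 228 CPM was exceeded in 3 wells and *Napa* at 323 CPM in 12. The broadly expressed genes were not all high there: *Snap23* was at 0, *Vamp4* at 0.248 and *Stx3* at 0.496 CPM, and *Vamp8* at 5.95 CPM was the lowest of all wells. F6, which also carried endothelial genes, had *Snap25* at 122 CPM and *Syt4* at 149 CPM, close to the median wells. Leaving out H4 and F6 moved no count of widely detected genes (12 of 38). Part of the H4 set was also seen in the Prl-led wells H9 and H7. *Snap25* was at 2.34 and 8.29, *Vamp2* at 0.0938 and 1.66, and *Syp* at 0 and 4.56 CPM there. *Vamp3* was at 280 and 228 CPM. Unlike in H4, *Syt4* was at 128 and 558 CPM.

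Of 102 other genes of membrane fusion listed for comparison, 101 were in the table, 22 reached 10 CPM in 50% or more of the wells and 14 did so in no well. High median levels among these 22 were those of *Sec22b* (a SNARE of the endoplasmic reticulum) at 56.8 CPM per kb, the Golgi SNAREs *Bet1l* and *Gosr2* at 39.8 and 30.4, *Use1* (also of the endoplasmic reticulum) at 34.8 and the endosomal *Vti1b* at 26.5. Lower levels were those of *Snap47* at 26.4, *Rab11a* at 15.5, *Rab8a* at 9.39 and *Stx7* at 8.99. The level of *Vamp8* thus lay next to that of *Sec22b*, and *Vamp2* next to *Rab8a*, on the scale of CPM per kb.

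Levels of the 12 widely detected genes varied together across wells, and most strongly with *Ptprn*. Over the 66 pairs the median Spearman's rho was 0.380 (60 pairs above 0, 22 above 0.5), beside 0.199 over the pairs of the 2755 genes detected as widely. The highest were *Ptprn* with *Snap25* (0.756), *Syt11* (0.668), *Napa* (0.655) and *Syp* (0.651), and *Vamp8* with *Snap25* (0.637). The lowest were *Syt1* with *Vamp3* (-0.217), *Vamp3* with *Vamp2* (-0.0782), *Nsf* with *Vamp4* (-0.0752), *Vamp3* with *Snap25* (-0.0508) and *Nsf* with *Vamp2* (-0.0217). *Ptprn* had the highest median rho to the other 11 genes (0.548) and *Vamp3*, the endosomal VAMP, the lowest (0.143).

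The points of these correlations are wells that share depth and spike-in share. In the 22 wells with under 5% spike-in, the same 66 pairs had a median rho of 0.155 (43 above 0, 7 above 0.5), and the 18 genes detected as widely there had a median of 0.104 over 153 pairs, beside 0.0571 over the pairs of 3614 genes. Part of the likeness seen over all 46 wells was thus not present among these 22. There *Ptprn* had a rho of 0.648 with *Syp*, 0.598 with *Syt11* and 0.561 with *Napa*, and 0.453 with *Snap25*. The lowest pairs were further below 0: *Syt1* with *Vamp3* at -0.620, *Nsf* with *Vamp4* at -0.595 and *Vamp3* with *Vamp2* at -0.416. By plate columns, *Ptprn* and *Snap25* had a rho of 0.841 over the 29 wells of columns 1 to 3 and 7 to 9 and 0.431 over the 17 wells of columns 4 to 6 and 10 to 12. In the 29 wells, the 11 genes detected as widely there had a median rho of 0.416, beside 0.183 over all such genes. In the 17 wells, the median over the 21 genes detected as widely there was 0.174, beside 0.179 over all such genes. That larger set was thus no more alike than other genes there, and it is not the set of 12. Among the 66 pairs of the 12 genes, rho in these columns ran from -0.236 (*Vamp3* with *Snap25*) to 0.939 (*Syp* with *Vamp2*). *Vamp8* with *Snap25* was at 0.816 and *Ptprn* with *Syt11* at 0.811.

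**Figure D3:**
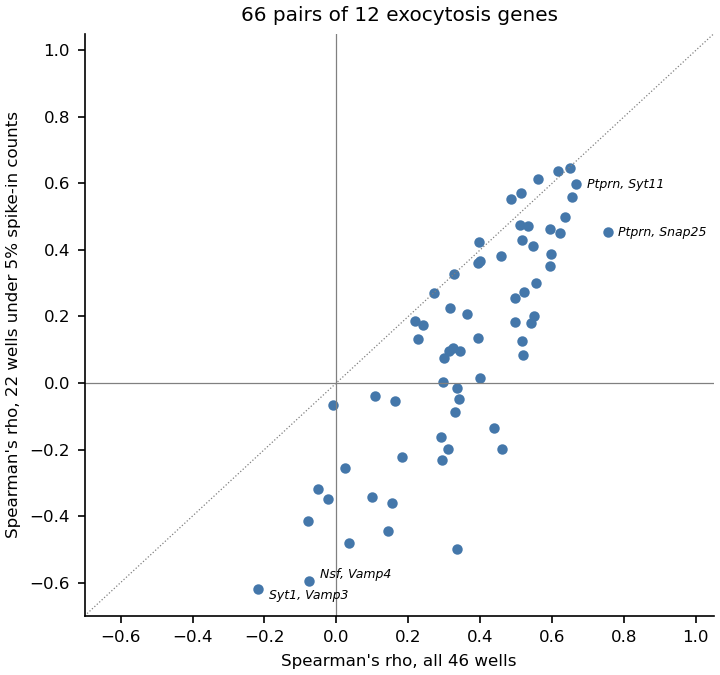
Spearman's rho of each of 66 gene pairs over all 46 wells (x axis) and over the 22 wells with under 5% spike-in (y axis), 1 point per pair, with a dotted line of equal values. Most points lie below the line, and Syt1 with Vamp3 is the lowest on both axes.

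In the Pomc-led wells *Rab3b*, the calcium sensor gene *Syt1* and the vesicle membrane gene *Syp* were higher than in the Prl-led wells, each in 18 of 18 alternative settings. *Cplx2* and *Rab3c* were lower, with the call kept in 15 of 18 settings for both. Their Prl-led medians, 5.44 and 6.64 CPM, were themselves under the detection limit of 10 CPM. Differences are between medians of log2(CPM + 1), so that they depend on the added 1 where a median is near 0, and a gene was called at 2 log2 units. The comparison took the 31 of 38 genes with a mean of at least 10 CPM, which left out *Stx1a*, *Sv2c*, *Rph3al*, *Rims2*, *Cplx1*, *Cadps* and *Cadps2* and kept *Rab27b* through 1 well. Of these, 9 were higher in the Pomc-led wells (background: 19.8% of 7959 genes) and 3 were lower (background: 9.15%). The median difference was 0.58 over the 31 genes and 0.11 over all 7959. In the wells with under 5% spike-in, 5 Pomc-led against 14 Prl-led, 7 of 34 genes were higher (background: 12.6% of 8170 genes) and 7 were lower (background: 13.5%), with a median difference of 0.22 beside 0 over all genes. With the hormone counts left out of the total 9 of 33 genes were higher and 6 lower (all genes: 16.4% and 10.8%), and with TMMwsp library sizes 7 and 6 of 31 (all genes: 14.0% and 11.9%), both of which moved the median of all genes from 0.11 to 0.

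*Rab3b* was at 1788, 288, 271, 2550 and 416 CPM in the Pomc-led wells B2, D10, E8, F11 and H2, and at 0, 7.84 and 3898 CPM in the lowest, median and highest Prl-led well. All 5 Pomc-led wells were above all but 2 of the 37 Prl-led wells, the highest of which was E3. The difference was 5.56 log2 units in all wells and 8.20 in those with under 5% spike-in, where 1 of 14 Prl-led wells was above the lowest Pomc-led well. *Rab3b* was also the Rab3 isoform with the highest level per kb in 5 of 5 Pomc-led wells, against 15 of 37 Prl-led and 1 of 4 Gh-led wells. High *Rab3b* was not limited to the Pomc-led label. The 3 wells with *Gnrhr* at 10 CPM or more were E3, F4 and H2, of 3 different groups. Their *Rab3b* levels were 3898, 1681 and 416 CPM. The part of gonadotrope genes in the difference was not tested.

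*Syt1*, the fast calcium sensor, was at 242, 575, 81.4, 44.3 and 518 CPM in the same Pomc-led wells. The Prl-led wells had 0, 10.9 and 111 CPM as lowest, median and highest. The groups overlapped in F11 and E8, and 7 of 37 Prl-led wells were above the lowest Pomc-led well, with a difference of 4.36 log2 units in all wells and 6.26 in those with under 5% spike-in. *Syt11* was at 261, 112, 163, 8.28 and 107 CPM, against 0, 9.59 and 260 CPM in the Prl-led wells. Its difference was 3.41 in all wells and 2.66 with under 5% spike-in, but 0.24 within plate columns 4 to 6 and 10 to 12, and the Prl-led wells spanned nearly the whole range.

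*Syt5* was split among the Pomc-led wells, at 0.189, 4.29, 199, 349 and 57.9 CPM, and its Prl-led wells ran from 0 over a median of 6.17 to 639 CPM. The groups overlapped throughout. Its difference was 3.04 log2 units in all wells and 5.12 with under 5% spike-in, but -1.34 within plate columns 4 to 6 and 10 to 12, where 2 Pomc-led wells lie, 1.65 with TMMwsp sizes and 1.30 without E8 or F11.

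*Syp*, the vesicle membrane protein synaptophysin, was at 180, 386, 297, 148 and 393 CPM in the Pomc-led wells, against 0, 29.3 and 441 CPM in the lowest, median and highest Prl-led well. 4 of 37 Prl-led wells were above the lowest Pomc-led well. The difference was 3.30 log2 units in all wells and 2.10 with under 5% spike-in. The granule gene *Ptprn2* was at 95.7, 13.9, 132, 0 and 4.22 CPM against a median of 0 CPM and a highest value of 153 CPM, so its difference of 3.89 in both sets of wells rests on the added 1.

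For 3 more genes the difference shrank below the call among wells with under 5% spike-in. *Napa* was at 899, 1250, 724, 309 and 329 CPM in the Pomc-led wells and at 0.188, 99.95 and 864 CPM in the lowest, median and highest Prl-led well, but the Prl-led median was 315 CPM in those with under 5% spike-in. Its difference was 2.84 log2 units in all wells and 1.20 in that set. *Ptprn*, at 1337, 592, 463, 37.9 and 415 CPM, had differences of 2.92 and 0.88, and *Vamp2*, at 174, 97.0, 70.0, 111 and 67.5 CPM, 2.41 and 0.78. For all of these the Prl-led median was lower over all wells than over those with under 5% spike-in, and the part of spike-in share in the difference was not tested apart from this split.

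Genes lower in the Pomc-led wells were complexin, a Rab3 isoform and synapsin. *Cplx2* was at 1.13, 0, 0, 0 and 0.0796 CPM in the Pomc-led wells, 10 CPM in none, against 0, 5.44 and 122 CPM in the Prl-led wells. 21 of 37 Prl-led wells were above the highest Pomc-led well, and the difference was -2.69 log2 units in all wells and -3.96 with under 5% spike-in. It was 0 within plate columns 4 to 6 and 10 to 12 and after thinning to 100000 counts, and -0.63 with a pseudocount of 10. *Rab3c* was at 0, 0, 148, 0.316 and 0.239 CPM against 0, 6.64 and 171 CPM, with differences of -2.62 and -4.51, the well E8 lying among the highest. The *Rab3c* difference was -1.95 within plate columns 1 to 3 and 7 to 9, -1.16 between means and -0.70 with a pseudocount of 10. *Syn1* was at 7.55, 0.33, 0, 0.527 and 0.318 CPM against 0, 4.35 and 101 CPM, with differences of -2.01 and -3.58, but it kept the call in 9 of 18 settings, with -1.93 without C11, -1.91 without E8 or H2 and 0 after thinning to 100000 counts. The lowest of each Prl-led range was 0 as well, so the groups overlapped for all of these.

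*Rab3d*, another granule Rab3, passed the call among the wells with under 5% spike-in, at -3.52, but not in all wells, at -1.42. It was at 0, 0.33, 2.28, 0.211 and 0.169 CPM in the Pomc-led wells, against 0, 14.0 and 273 CPM in those 14 Prl-led wells. *Syt7* at -3.73, *Napb* at -2.99 and *Stx4a* at -2.41 did so too. *Cadps2*, outside the filter on the mean over all wells, differed by 2.19 in this set and by 3.98 in all wells. The most abundant members differed less in that set: *Snap25* by 1.10, *Syt4* by 0.33 and *Vamp8* by -0.25 log2 units.

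**Figure D4:**
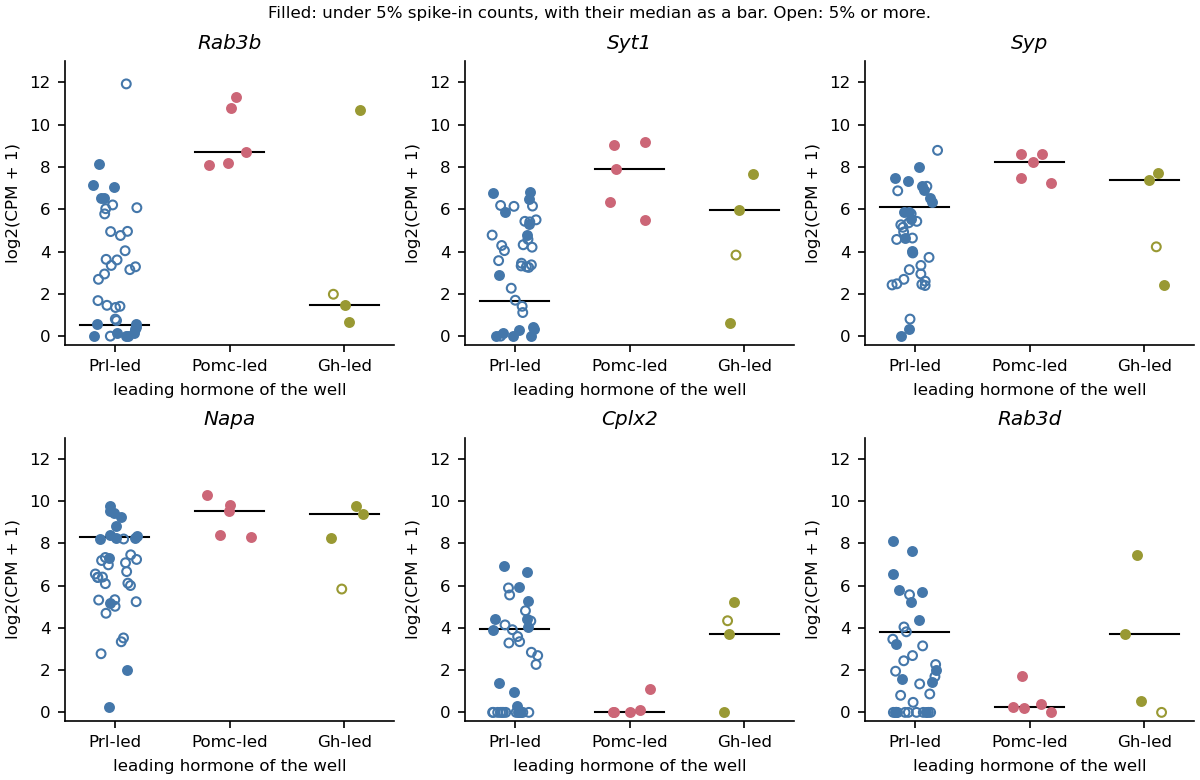
log2(CPM + 1) of 6 genes (y axes) by leading hormone of the well (x axes), 1 point per well, filled with a bar at their median for wells under 5% spike-in and open for the others. All 5 Pomc-led wells lie in the upper range for Rab3b and at or near 0 for Cplx2 and Rab3d, while the filled points of all 3 groups overlap for Napa.

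The 4 Gh-led wells did not form an even group, and single wells set its values. 7 of 31 genes were higher than in the Prl-led wells (background: 14.9% of 7959 genes) and 1 was lower (background: 6.35%), with a median difference of 1.20 beside 0.11 over all genes. Without C9, the well with the high *Gh* and with 7.41% spike-in, 16 of 31 were higher and 2 lower (all genes: 26.6% and 10.7%), and without F4 4 and 1 (all genes: 14.2% and 9.41%). With hormone counts left out of the total 5 of 33 were higher and 3 lower (all genes: 11.3% and 8.48%), and with TMMwsp library sizes 3 and 2 of 31 (all genes: 10.8% and 8.28%), shares close to those of all genes. In the wells with under 5% spike-in, 3 against 14, 10 of 34 genes were higher (background: 17.9% of 8170) and 5 were lower (background: 13.7%).

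*Sv2a*, a vesicle glycoprotein, was at 0.71, 1.47, 100 and 198 CPM in B12, C9, F4 and H11, against 0, 0.415 and 134 CPM in the lowest, median and highest Prl-led well. The high values came from F4 and H11 alone, and the difference was 3.48 log2 units, or 0.81 without F4 or without H11. *Ptprn2* was at 56.1, 11.8, 54.4 and 0 CPM, with a difference of 4.73 from a Prl-led median of 0. *Vamp2* was at 227, 44.2, 195 and 30.6 CPM and *Napa* at 864, 56.0, 301 and 663 CPM, with differences of 2.35 and 2.15. Both were under the call in the wells with under 5% spike-in (1.78 and 1.07), with TMMwsp sizes (1.63 and 1.32) and without B12 (1.29 and 1.58). All 4 wells were above the Prl-led median for *Vamp2*, and 3 of 4 were for *Napa*.

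*Rab3c* was at 0.142, 2.95, 385 and 309 CPM in the Gh-led wells, with a difference of 2.20 that became -0.95 without F4 or without H11. *Syt11* was at 647, 2.21, 431 and 3.99 CPM, with a difference of 2.13 that became -1.08 without B12 or without F4. *Sytl4*, a Rab27 effector, was at 7.31, 14.7, 236 and 0 CPM, with a difference of 2.16, or 1.70 without C9 or without F4. Each of these groups held wells near the bottom and wells above the top of the Prl-led range.

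*Snap23* was the gene lower in the Gh-led wells, at 0, 16.2, 0 and 0 CPM against 0, 8.73 and 115 CPM in the Prl-led wells. 3 of the 4 wells had no count, and C9 was above the Prl-led median. The difference was -3.28 log2 units in all wells and -5.31 with under 5% spike-in, where the Prl-led median was 38.6 CPM. *Cadps*, the granule-priming gene, was at 75.7, 4.42, 2.81 and 58.7 CPM in the Gh-led wells and did not reach the mean of 10 CPM over all wells, but among the wells with under 5% spike-in it differed by 5.90 log2 units from a Prl-led median of 0. In that set *Sv2a* (6.24), *Syt5* (5.84), *Ptprn2* (5.79), *Syt11* (4.60), *Syt1* (4.28), *Rab27a* (3.74), *Rab3c* (3.46), *Sytl4* (2.90) and *Napb* were also higher, and *Stx4a* (-3.87), *Syn1* (-3.76), *Nsf* (-2.33) and *Cadps2* (-2.10) lower. With 3 Gh-led wells, each of these differences is set by the middle well.

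**Figure D5:**
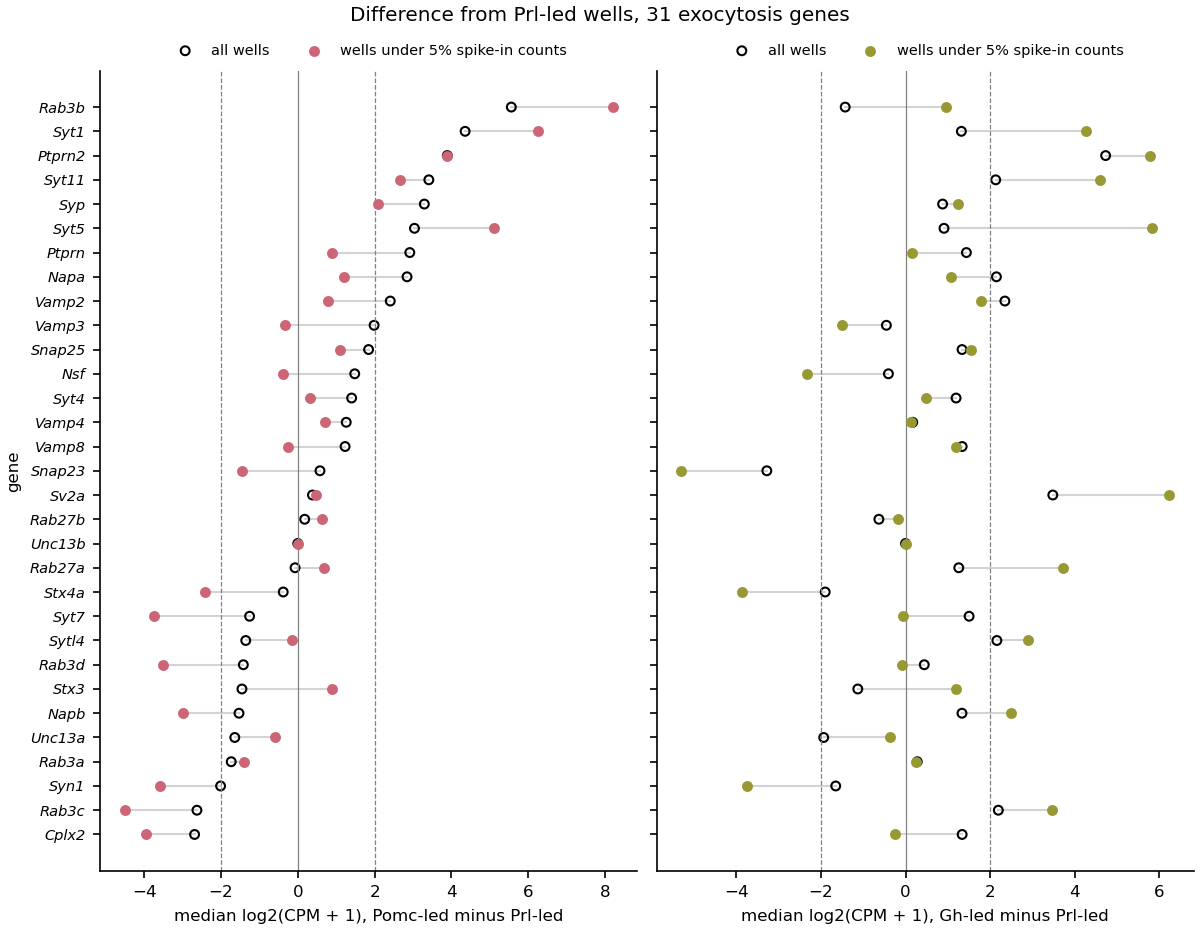
Difference of median log2(CPM + 1) between Pomc-led and Prl-led wells (left) and between Gh-led and Prl-led wells (right), x axes in log2 units, for 31 genes (y axis), for all wells (open) and wells under 5% spike-in (filled), with dashed lines at 2 log2 units. Rab3b at the top left goes from 5.56 to 8.20, and Ptprn, Napa and Vamp2 fall inside the dashed lines in the filled points.

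Both comparisons used the same 37 Prl-led wells. Of the 101 other genes of membrane fusion, 52 were compared, and 19 were higher and 3 lower in the Pomc-led wells (all genes: 19.8% and 9.15%) with a median difference of 0.90, and 10 were higher and 3 lower in the Gh-led wells (all genes: 14.9% and 6.35%) with a median of 0.50. Markers of other cells did not move evenly with the groups: summed endothelial genes reached 8855 CPM in the Prl-led, 44.7 CPM in the Pomc-led and 2.34 CPM in the Gh-led wells, and summed red cell genes reached 114224 CPM in a Pomc-led well. Summed macrophage genes reached 5225, 331 and 449 CPM in the Prl-led, Pomc-led and Gh-led wells. Folliculostellate or stem cell markers were at 0 in all Pomc-led and Gh-led wells. Their sum reached 188 CPM in the Prl-led wells, with a median of 0. These highest values are over 37, 5 and 4 wells, so they favour the Prl-led group. The part of such markers in the differences was not tested. Without wells H4 and F6, 10 of 32 genes were higher and 4 lower in the Pomc-led group (all genes: 20.3% and 9.48%).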

How the data were processed

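SC libraries of pituitary cells in 56 wells were analysed. The estimated counts that the authors deposited, 1 column per well and with no depth scaling, cover Ensembl genes and ERCC spike-ins; per the submitters' processing notes, STAR 2.5.1b, featureCounts 1.5.0-p1 and the mm10 genome were used. The study's methods name an annotation release for its bulk libraries; for the SC libraries the release and the strand setting are not given in the sources used here. All columns carried the name of 1 well, and 0 were left unmatched.

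CPM was computed over the 47069 gene rows without the 92 spike-ins, in wells with at least 100000 gene counts. Symbols, coordinates and union exon lengths came from GENCODE M21 on GRCm38 (46488 identifiers matched), and levels of different genes were compared as CPM per kb of exon. A gene was detected at 10 CPM. Groups were set by the hormone gene with the most counts among *Prl*, *Gh*, *Pomc*, *Tshb*, *Lhb* and *Fshb*. Differences are of medians of log2(CPM + 1), called at 2 log2 units among genes with a mean of at least 10 CPM. Likeness is Spearman's rho. Intervals are exact (Clopper-Pearson, 95%) and are for shares of wells. They cover counting error over wells only and take the wells as independent, so likeness between wells such as C10 and C11 is not covered. Reads had no molecular identifiers. Depth per well was 111195 to 12563266 gene counts. Doublets were not called.

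The 38 genes, the list of 102 other fusion genes and the marker lists were chosen with earlier results of these data known. All 38 were named, with the 5 highest and 5 lowest pairs and, of the other fusion genes, the 10 with the highest median CPM per kb among those at 10 CPM in at least 50% of wells, of which 1 is not reported here; single wells, markers and the spike-in limit of 5% were chosen after values were seen. Promoters came from RefSeq on GRCm38.p6. Alternatives covered library scaling (edgeR 4.0.16 in R 4.3.3 for TMMwsp sizes only), depth, pseudocount, filters, plate columns and left-out wells. Python 3.11.15, numpy 2.4.6, pandas 2.3.3, scipy 1.17.1 and matplotlib 3.10.9 were used, and the steps were tested on simulated data.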

Additional observations from a re-analysis of the deposited data

Results flagged for a closer look

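The 10 wells with under 100000 gene counts (357 to 96288) were not used in any comparison, yet 22 of the 38 genes had over 3 counts summed over them. Counts of at least 1 of the genes were present in 9 of the 10 wells, and 9 genes had 0 counts. *Snap25* had 101 counts in 8 of these wells, *Vamp8* 97 in 8, *Syt5* 93 in 8, *Napa* 64 in 9, *Ptprn* 63 in 6 and *Syt4* 39 in 9.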

How the results depend on the processing

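Of 112 recomputed values of the main results, 91 stayed within a set range of the reported one. The range was a fixed ratio for counts of genes and the exact interval for shares of wells led. For the summed level and for rho it was the standard deviation over wells or over pairs. These ranges were wide. The summed level had a standard deviation of 2428 CPM around a median of 2474 CPM. The median rho of 0.174 in plate columns 4 to 6 and 10 to 12 also counted as within range of 0.380. The 12 widely detected genes became 21 in plate columns 4 to 6 and 10 to 12, 27 at 1 CPM, 30 at 1 count and 4 at 100 CPM. The leading syntaxin was *Stx3* in 47.8% of wells by CPM without length, the leading Rab3 was *Rab3a* in 44.8% of wells of columns 1 to 3 and 7 to 9, and *Syt4* led 47.1% of wells of the other columns. The median rho was 0.104 in wells with under 5% spike-in (added after seeing the data) and 0.132 with every gene at 1 count. The 12 calls for Pomc-led wells became 20 with a pseudocount of 0.1, 7 with 10 and 25 at 1 log2 unit, and 12 to 16 on leaving out 1 Pomc-led well (11 without C11). The 8 calls for Gh-led wells became 3 in columns 1 to 3 and 7 to 9, 15 in the other columns, 14 after thinning to 100000 counts, 15 with under 5% spike-in, 5 with TMMwsp sizes, 2 with a pseudocount of 10 and 22 at 1 log2 unit, and 5 (without F4) to 18 (without C9) on leaving out 1 Gh-led well. *Syt5* in Pomc-led wells turned to -1.34 in columns 4 to 6 and 10 to 12. In columns 1 to 3 and 7 to 9, with 1 Gh-led well, *Snap23* turned to 0.54, *Syt11* to -1.0, *Rab3c* to -0.28 and *Napa* to -0.55, and on leaving out 1 Gh-led well *Syt11* ran from -1.08 to 5.35 and *Rab3c* from -0.95 to 5.34. The cause was not tested. *Rab3b*, *Syt1* and *Syp* kept their Pomc-led call in all 18 alternatives. No paired analysis was possible because the wells form 1 sample and carry no replicate numbers shared between groups.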
